A study of Mus musculus with 30 samples.

Results

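Regions of open chromatin listed in pachytene spermatocytes alone, and lying away from the distal chromosome ends, are described here. They were chosen by presence in peak lists: ATAC-seq peaks of 4 germ cell stages on chromosomes 1 to 19 were joined into union regions wherever they overlapped by at least 1 bp, and a region was selected if it held a pachytene peak and no peak of the other 3 stages. Its midpoint also had to lie more than 10 Mb from the distal end, taken as the highest peak end of that chromosome over the 4 lists. The rule selected 8161 of the 117075 union regions of the series. On chromosomes 1 to 19, 13586 regions were listed in pachytene cells alone, so that 5425 of them fell in the last 10 Mb and were left out. Among the 98509 union regions inside the 10 Mb limit, the 8161 made up 8.28%, a share fixed by the rule of selection.

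The samples were germ cells from testes of C57BL/6 mice of 4 kinds. Primitive type A spermatogonia (PriSG-A) came from mice of postnatal day 6 and type A spermatogonia (SG-A) from mice of postnatal day 8, while pachytene spermatocytes (pacSC) and round spermatids (rST) came from adults. Of the 30 samples, 10 are ATAC-seq libraries, with 3 for each kind of spermatogonia and 2 each for pacSC and rST. The 8 Hi-C samples and the 12 ChIP-seq and input samples were not analysed here. ATAC-seq marks open DNA by the cuts of the Tn5 transposase, and each stage was deposited as 1 list of open regions for all its replicates, which held 56792 regions for PriSG-A, 88369 for SG-A, 33775 for pacSC and 6459 for rST. The stages therefore differ in age of the animals and in number of libraries as well as in cell type. Peak lists carry no expression of marker genes, so the cell type labels could not be checked against them. How deeply each list was sequenced is unknown, and a region missing from a list is a region not listed, not one shown to be closed.

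At pachytene, the long prophase stage of the first meiotic division, homologous chromosomes are synapsed along the synaptonemal complex and recombination is being completed. The chromatin is arranged in loops along this axis, and the ends of each chromosome are attached to the nuclear envelope. The autosomes are transcribed while the X and Y are silenced in the sex body. The centromere of mouse autosomes sits close to coordinate 1, and distal means the opposite end.

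With 1 list per stage there is no replicate error and no p-value was computed. Intervals are 95% intervals, Wilson for shares and Poisson for counts per Mb and their ratios. They cover counting error only and take neighbouring regions as independent, which they were not (the spacing is given further on), so they are too narrow. Positions are printed as 1-based, on the assembly of the files. They do not appear to be on mm10, the build that the submitters' processing notes name. Peaks were listed beyond the final gene in a RefSeq table for GRCm38, the assembly behind mm10, on 10 of 19 autosomes, by up to 7.20 Mb on chromosome 7. That comparison used gene ends and not chromosome lengths. No gene or sequence is therefore named for any region.

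The regions were denser on short autosomes than on long ones. On the 6 shortest autosomes (13, 15, 16, 17, 18 and 19) they numbered 2553 in 491 Mb, and on the 6 longest (1, 2, 3, 4, 5 and 7) 2161 in 921 Mb, a density ratio of 2.22 (2.09 to 2.35). The mean over chromosomes was 5.33 ± 0.950 regions per Mb on the 6 shortest and 2.34 ± 0.439 on the 6 longest (SD, n = 6 chromosomes each). The lowest of the 6 shortest, chromosome 17 at 4.29 per Mb, stood above the highest of the 6 longest, chromosome 3 at 3.03 per Mb. Over all 19 autosomes the density was 3.67 per Mb, and its Spearman correlation with chromosome length was −0.75 (n = 19 chromosomes, given as a description). The points of that correlation share the same 4 lists.

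In order of rising length, chromosome 19 had the highest density, with 322 regions at 6.67 per Mb (5.97 to 7.44) over a listed length of 61.3 Mb. Chromosome 18 had 430 regions at 5.53 per Mb (5.02 to 6.08), chromosome 17 had 353 at 4.29 (3.86 to 4.76), chromosome 16 had 426 at 5.00 per Mb (4.54 to 5.50) and chromosome 15 had 551 at 6.10 per Mb. Chromosome 13 had 471 at 4.39 per Mb. Chromosome 17 was below chromosome 18 beyond their intervals, and its interval overlapped that of chromosome 16. At the long end, chromosome 7 had the lowest density, with 264 regions at 1.89 per Mb (1.67 to 2.14). Chromosome 4 had 291 at 2.04 per Mb, chromosome 5 had 299 at 2.14, chromosome 1 had 405 at 2.2 (1.99 to 2.43) and chromosome 2 had 458 at 2.71. The intervals of chromosomes 7, 4, 5 and 1 overlapped, so these 4 could not be ordered.

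Length did not set the order by itself. Chromosomes 12 and 11 are close in length, at 121.2 and 121.8 Mb, and differed in density beyond their intervals: chromosome 12 had 533 regions at 4.93 per Mb (4.52 to 5.36) and chromosome 11 had 278 at 2.55 per Mb (2.26 to 2.87). Chromosome 6, of 149.5 Mb, had 600 regions at 4.40 per Mb (4.05 to 4.76), whereas chromosome 7, of 152.5 Mb, had the 1.89 per Mb given above. Chromosome 10, of 130 Mb, held the most regions of any autosome, 649 at 5.55 per Mb. With the 9 shortest autosomes set against the 9 longest, which include chromosomes 6, 8 and 10, the ratio was 1.55 (1.48 to 1.62).

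**Figure D1:**
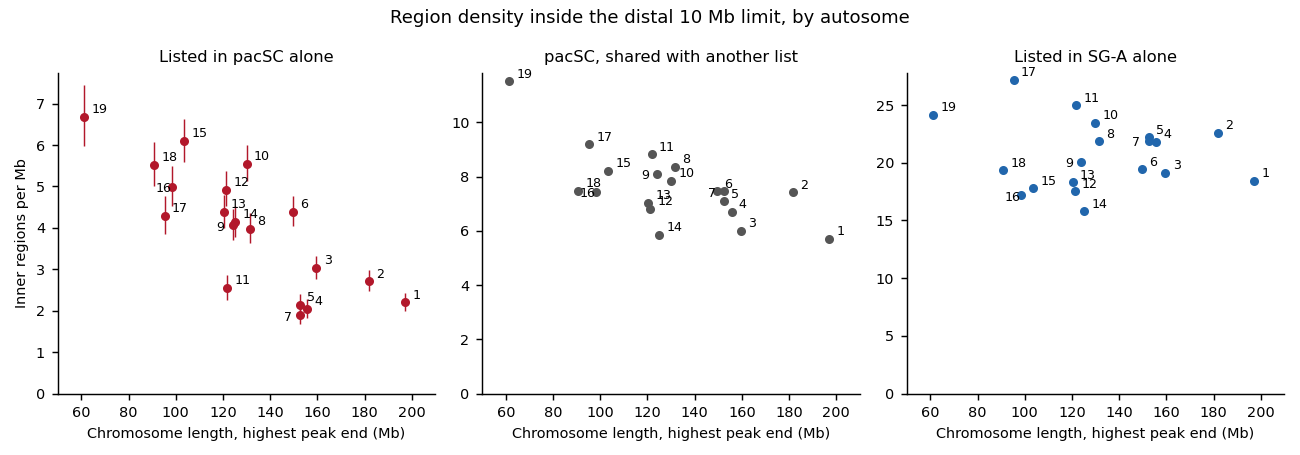
Inner regions per Mb (y axis) against the length of each autosome in Mb, taken as its highest peak end (x axis), with panels for regions listed in pacSC alone, pacSC regions shared with another list and regions listed in SG-A alone. Each point is 1 of 19 autosomes, and bars, drawn in the pacSC-alone panel only, are 95% Poisson intervals. The pacSC-alone panel slopes down with length, with 6.67 per Mb on chromosome 19 and 2.2 on chromosome 1, with chromosomes 11 and 7 low and chromosomes 10 and 6 high for their length, and the SG-A panel has no slope (Spearman 0.04).

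Over the whole inner span, the slope with length was steeper in these regions than in the other classes of region on the same chromosomes. For the 16376 inner pacSC regions shared with another stage, the density ratio of the 6 shortest to the 6 longest autosomes was 1.22 (1.18 to 1.27) and the Spearman correlation −0.59. The pacSC-alone ratio was 1.81 times as large (1.69 to 1.94). For the 1023 inner regions shared by pacSC and rST with no spermatogonial list, the ratio was 1.42 (1.22 to 1.65), and the pacSC-alone ratio was 1.56 times as large (1.33 to 1.83). For the 45830 inner regions listed in SG-A alone the ratio was 0.967 (0.944 to 0.991) and the correlation 0.04, and the pacSC-alone ratio was 2.29 times as large (2.15 to 2.44). Regions listed in PriSG-A alone had a ratio of 0.912, and those in PriSG-A and SG-A and no later list had one of 0.903, so both of these classes were slightly less dense on the short autosomes.

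The share of inner pacSC regions that no other stage listed was also higher on the short autosomes, though its order by chromosome differed. It was 33.3% (32.7 to 33.9) of 24537 regions over all autosomes, 38.8% (37.6 to 39.99) on the 6 shortest and 25.9% (25.0 to 26.9) on the 6 longest. The share and the count of 8161 depend on how peaks are matched: they were 67.2% and 16498 when an overlap had to be reciprocal at 50%. They also depend on which pacSC peaks are kept: they were 2.57% and 65 with only pacSC peaks at −log10 q 5 or more. The other 3 lists were not cut by −log10 q for this. By chromosome the share ran from 20.2% on chromosome 7 and 22.5% on chromosome 11 up to 42.6% on chromosome 15. Chromosome 19, the densest, had 36.7%. Its Spearman correlation with length was −0.55 (n = 19). Chromosomes with more regions shared by the spermatogonial stages alone had fewer pacSC-alone regions, with a correlation of the 2 densities of −0.70 (n = 19), whereas the correlation with the density of shared pacSC regions was 0.41. Chromosome 7, with the lowest pacSC-alone density, had 11.05 spermatogonial regions of that kind per Mb, and chromosome 15 had 5.99. Chromosome 17 went the other way, with the most such spermatogonial regions of any autosome, 11.44 per Mb, and 4.29 pacSC-alone regions per Mb. However, 160 of its 353 pacSC-alone regions lay in its first 10 Mb. The rest of its inner span had 2.67 per Mb, against 3.33 for the same part of all autosomes.

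Short autosomes as a group had both fewer empty stretches and more regions per occupied stretch. Of whole 1 Mb windows inside the limit, 441 of 483 (91.3%) held at least 1 region on the 6 shortest autosomes and 644 of 912 (70.6%) on the 6 longest. The median number per occupied window was 5 on chromosomes 19 and 18 and 6 on chromosome 15, but 2 on chromosomes 1, 2, 4, 5 and 7. Chromosomes 17 and 3 were exceptions: both had a median of 3, with 76.5% of windows occupied on the short chromosome 17 and 80.7% on the long chromosome 3. In the last 10 Mb, outside the selected regions, the density of pacSC-alone regions had no such order: its Spearman correlation with length was 0.21 (n = 19), with 27.9 per Mb on chromosome 19, 45.2 on chromosome 7 and 34.8 on chromosome 1.

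The 10 Mb limit did not separate 2 flat parts of the chromosome, since the pooled density went on falling inside it. Over the 19 autosomes together it was 10.1 per Mb (9.09 to 11.1) at 10 to 12 Mb from the distal end, 7.25 at 12 to 15 Mb, 4.80 at 15 to 20 Mb and 4.01 at 20 to 30 Mb. It reached 3.22 at 40 to 60 Mb and its lowest value, 2.85 (2.68 to 3.03), at 60 to 80 Mb. Beyond 150 Mb, where only the longest autosomes extend, it was 4.56 (4.11 to 5.04). That band takes in the centromeric ends of these autosomes. The first 10 Mb of chromosomes 1 and 2 held 54 and 123 of its 374 regions. Pooled density was 2.00 (1.88 to 2.13) times as high at 10 to 20 Mb as beyond 40 Mb. It was higher at 10 to 20 Mb on 17 of 19 autosomes, with chromosomes 16 and 19 the exceptions. The 6 longest autosomes made up 741 Mb of the far band and the 6 shortest 311 Mb, against 60 Mb each of the near band. The pooled ratio therefore mixes distance with chromosome length. From the near to the far band, density went from 7.05 to 4.84 per Mb on the 6 shortest autosomes. On the 6 longest it went from 6.03 to 2.07. The pooled ratio was 1.22 (1.16 to 1.28) for shared pacSC regions, 1.32 (1.28 to 1.36) for SG-A-alone regions and 0.644 (0.600 to 0.691) for PriSG-A-alone regions. Unlike the pacSC-alone regions, SG-A-alone regions were less dense right at the limit (20.1 per Mb at 10 to 12 Mb) than just inside it (29.3 at 12 to 15 Mb).

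A rise was also present at the opposite, centromeric end. In the first 2 Mb from the first listed peak the density was 9.53 per Mb (8.57 to 10.6), then 8.46 at 2 to 5 Mb, 5.63 at 5 to 10 Mb, 3.89 at 10 to 20 Mb and 3.24 beyond 40 Mb. The first 2 Mb was the densest band in the other classes too. Shared pacSC regions had 16.1 per Mb there and 7.15 beyond 40 Mb, and PriSG-A-alone regions 15.1 and 5.41. Regions of PriSG-A and SG-A and no later list had 15.8 and 7.82, and SG-A-alone regions 22.5 and 21.5. For pacSC-alone regions, the first 10 Mb held 7.26 per Mb and the rest of the inner span 3.33, a ratio of 2.18 (2.05 to 2.31). These values are pooled too, and long autosomes weigh more in the rest of the span. The first 10 Mb was the denser part on 14 of 19 autosomes. This end was uneven between chromosomes: it had 16 per Mb on chromosome 17 (160 regions), 12.3 on chromosome 2, 11.8 on chromosome 6 and 11.4 on chromosome 10, against 2.67, 2.11, 3.81 and 5.00 on the rest of the same 4 chromosomes. It had 2.70 on chromosomes 7 and 9, 3.3 on chromosome 14 and 3.6 on chromosomes 3 and 18. Shared pacSC regions had a ratio of 1.30 (1.24 to 1.37) at this end, SG-A-alone regions 0.882 (0.852 to 0.913) and PriSG-A-alone regions 1.76 (1.67 to 1.84).

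**Figure D2:**
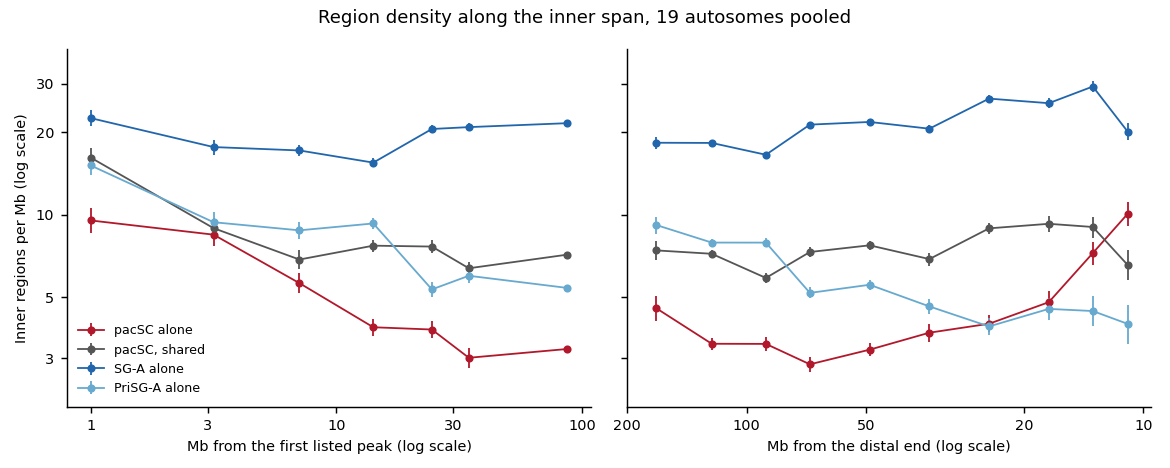
Inner regions per Mb on a log scale (y axis) against distance in Mb on a log scale (x axis), from the first listed peak in one panel and from the distal end in the other, for 19 autosomes pooled. Points are distance bands with 95% Poisson intervals, for regions listed in pacSC alone, shared pacSC regions, SG-A-alone regions and PriSG-A-alone regions. The pacSC-alone line is high at both ends, 9.53 per Mb in the first 2 Mb and 10.1 at 10 to 12 Mb from the distal end, and lies near 3 in between.

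Because a short chromosome has a larger part of its span near an end, the comparison by length was repeated at fixed distances. At 10 to 20 Mb from the distal end the difference was small: 7.05 regions per Mb on the 6 shortest autosomes and 6.03 on the 6 longest, a ratio of 1.17 (1.02 to 1.34), with a Spearman correlation with length of −0.05. In that band chromosome 15 was highest at 12.2 per Mb and chromosome 4 lowest at 3.00, and the 2 groups of chromosomes overlapped. At 20 to 40 Mb the densities were 5.21 on the 6 shortest and 2.2 on the 6 longest, a ratio of 2.37 (2.05 to 2.73). One long autosome, chromosome 3 at 5.55 per Mb, lay among the short ones in that band. Beyond 40 Mb they were 4.84 on the 6 shortest and 2.07 on the 6 longest, a ratio of 2.34 (2.17 to 2.51). There the 6 shortest ran from 4.13 to 7.40 per Mb and the 6 longest from 1.62 to 2.54, without overlap. At 10 to 20 Mb the ratio was 1.58 (1.31 to 1.91) for PriSG-A-alone regions, 0.884 for shared pacSC regions and 0.683 for SG-A-alone regions. In that band the PriSG-A-alone ratio was thus above the pacSC-alone one. At 20 to 40 Mb these 3 ratios were 1.56, 0.908 and 0.707, and beyond 40 Mb 0.894, 1.35 and 1.06.

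The difference was also present away from both ends. More than 20 Mb from the first listed peak and from the distal end, the regions had a density of 4.40 per Mb on the 6 shortest autosomes (1369 regions) and 1.69 on the 6 longest (1251 regions), a ratio of 2.61 (2.41 to 2.81), with an interval that overlaps the one beyond 40 Mb. The 6 shortest ran from 2.62 on chromosome 17 to 5.53 on chromosome 18 there, and the 6 longest from 1.15 on chromosome 5 to 2.62 on chromosome 3, so that chromosomes 17 and 3 met. In the same interior the ratio was 1.24 (1.18 to 1.30) for shared pacSC regions and 0.988 (0.959 to 1.02) for SG-A-alone regions. It was 0.836 (0.789 to 0.884) for PriSG-A-alone regions. The position limit of 20 Mb from both ends was chosen after the values by distance had been seen.

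**Figure D3:**
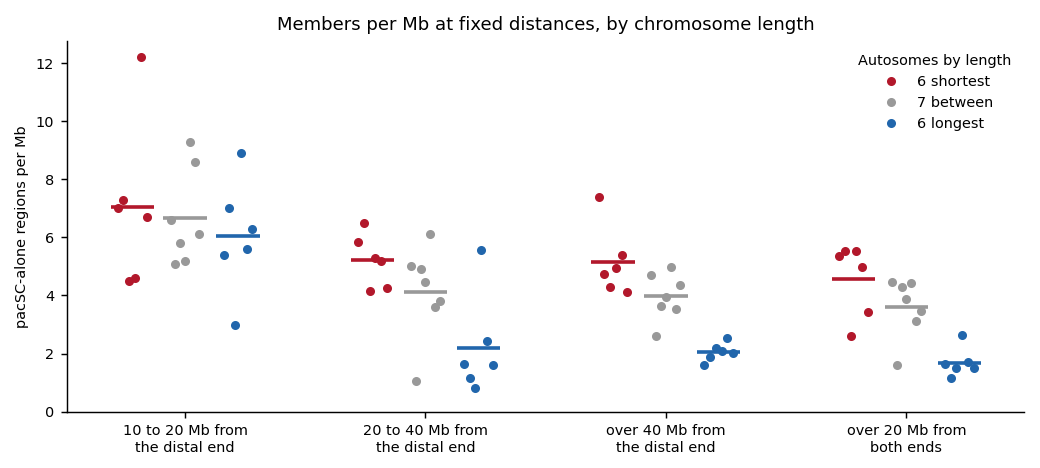
pacSC-alone regions per Mb (y axis) at 4 positions along the chromosome (x axis), for the 6 shortest autosomes, the 7 of middle length and the 6 longest. Each point is 1 autosome and each bar is the mean over the autosomes of its group. The groups overlap at 10 to 20 Mb from the distal end and part beyond 40 Mb, where the 6 shortest lie at 4.13 per Mb or more and the 6 longest at 2.54 or less.

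The length difference was also present within broad classes of spermatogonial region density. Whole 1 Mb windows more than 20 Mb from both ends were put into 3 classes of about equal number by their regions listed in PriSG-A and SG-A and no later stage. The high class ran from 9 to 43 such regions per window on the 6 shortest autosomes and from 9 to 92 on the 6 longest. The 2 groups were therefore not closely matched within it. In the low class the 6 shortest autosomes had 4.80 pacSC-alone regions per Mb and the 6 longest 2.01. In the middle class the 6 shortest had 5.06 and the 6 longest 1.90, and in the high class the 6 shortest had 3.35 and the 6 longest 1.16. Over all autosomes the density was 3.45 per Mb (3.3 to 3.61) in the low class, 3.06 (2.92 to 3.22) in the middle class and 2.14 (2.02 to 2.26) in the high class.

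Most of the regions were narrow and weakly scored by the authors' peak calling. Their median width was 106 bp, with 10% under 75 bp and 10% over 347 bp, and together they covered 1.42 Mb. Widths under 125 bp made up 59.0%, 125 to 250 bp 21.97%, 250 to 500 bp 14.3% and 500 bp or more 4.71% (384 regions, of which 42 reached 1000 bp). The pacSC regions shared with another stage had a median of 298 bp, and 34.7% of them reached 500 bp. The narrow width was common to regions of 1 list alone, since those listed in SG-A alone had a median of 103 bp and those in PriSG-A alone 100 bp.

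The deposited −log10 q, the authors' measure of how far a peak stands above its background, had a median of 2.23 in the pacSC-alone regions and 2.98 in the shared ones. Of the 24537 inner pacSC regions, 10.3% reached a −log10 q of 5. Among the pacSC-alone regions only 65 of 8161 did (0.796%, 0.625 to 1.01), and 15.04% of the shared pacSC regions did. When the inner pacSC regions were ranked by −log10 q, the share listed in pacSC alone was 54.0% in the lowest 10% and fell with each further 10% to 2.44% in the highest. Selection for absence from the 3 other lists and weak scores therefore went together, and their parts cannot be told apart. The pacSC-alone regions of the last 10 Mb had a similar median width of 108 bp, but 2.21% (1.85 to 2.64) of them reached a −log10 q of 5.

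**Figure D4:**
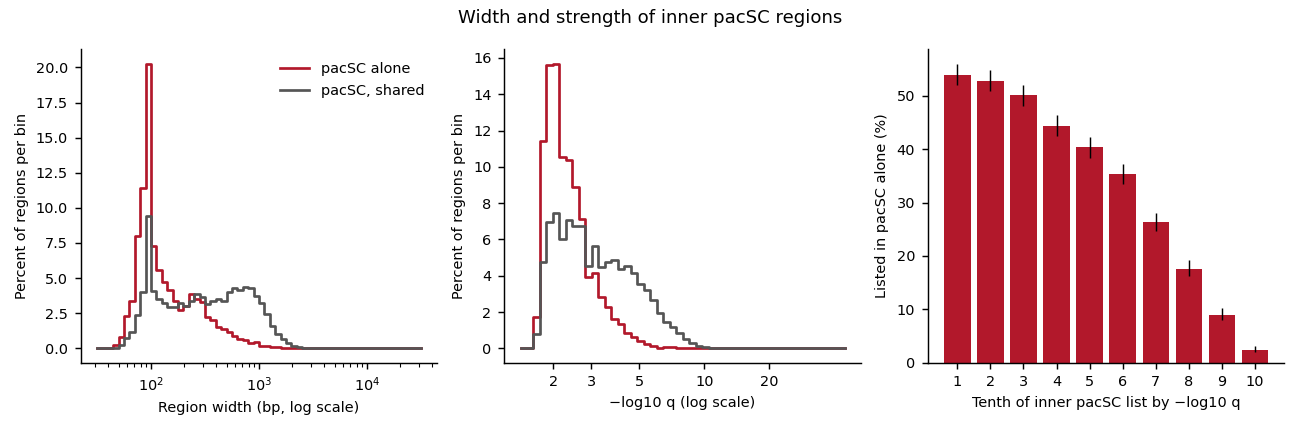
Percent of regions per bin against region width in bp and against −log10 q, both on log scales, for regions listed in pacSC alone and for shared pacSC regions, with a last panel of the percent listed in pacSC alone by successive 10% of the inner pacSC list, from the lowest to the highest −log10 q. Bars in the last panel are 95% Wilson intervals. The pacSC-alone regions peak near their median of 106 bp, and their share is 54.0% in the lowest 10% and 2.44% in the highest.

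Regions of every width class, and those of highest −log10 q, were denser on the short autosomes. Regions of lower −log10 q were not taken as classes of their own. The density ratio of the 6 shortest to the 6 longest autosomes was 2.13 (1.98 to 2.30) for regions under 125 bp, 2.00 (1.78 to 2.26) for 125 to 250 bp and 2.83 (2.47 to 3.24) for 250 bp and over. It was 3.04 (2.51 to 3.67) for the 825 regions in the upper 10% by −log10 q, from 280 regions on the 6 shortest and 173 on the 6 longest. For the 65 that reached a −log10 q of 5 it was 3.48 (1.82 to 6.67). The Spearman correlation with length was no stronger in these, at −0.74 for the upper 10% and −0.55 for the 65, against −0.75 for all regions. Median width varied little between chromosomes, from 100 bp on chromosomes 12 and 3 to 117 bp on chromosomes 17 and 11.

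The region of highest deposited signal value, an area over the peak in the authors' units, lay on chromosome 5 at 142150913 to 142151620. It was 708 bp wide with a signal value of 2891 and the highest −log10 q, 7.73, and its midpoint was 10.4 Mb from the distal end. On chromosome 15, a region of 1407 bp at 70295704 to 70297110 had a signal value of 2722. It was remote from spermatogonial open regions, the nearest PriSG-A region being 534 kb and the nearest SG-A region 774 kb away, although another pacSC-alone region lay 0.342 kb away. The next were 5558990 to 5560244 on chromosome 4 (signal value 2714), 4342056 to 4342991 on chromosome 1 (2585, also the highest on the longest autosome) and 4847725 to 4849017 on chromosome 15 (2356). These 3 lay 2.56, 1.34 and 1.71 Mb from the first listed peak of their chromosome, within the centromeric rise.

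By −log10 q the first 5 held 4 of those same regions and, on chromosome 14 at 13373503 to 13374929, a region with a −log10 q of 7.11. The widest regions were 1576 bp on chromosome 12 at 110976369 to 110977944, 1505 bp on chromosome 14 at 12985362 to 12986866 and 1475 bp on chromosome 18 at 31538816 to 31540290. The first of these lay 10.2 Mb from the distal end. On chromosome 19, the shortest and densest autosome, the strongest region had a signal value of 1514 and lay at 18729485 to 18730929, with a region of each other stage 13.7 to 14.1 kb away. At the edge of the selection, the 3 regions just inside the limit had midpoints at 10.0 Mb and signal values of 28.7, 26.0 and 72.7. The 3 just outside had midpoints at 9.98, 9.97 and 9.97 Mb and signal values of 408, 170 and 29.4.

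The regions were as far from one another as from SG-A regions by the median, with a wider spread. The median distance to the nearest listed region was 25.3 kb for PriSG-A, 19.1 kb for SG-A and 202 kb for the short rST list, and 61.2 kb for a pacSC region shared with another stage. It was 18.6 kb for another pacSC-alone region. Another pacSC-alone region lay over 100 kb away from 26.8%, and an SG-A region from 12.2%. An SG-A region lay within 1 kb of 13.3% (12.6 to 14.0), a PriSG-A region within 1 kb of 9.91% and an rST region within 1 kb of 4.86%. Another pacSC-alone region lay within 1 kb of 39.8% (38.7 to 40.8). That share was 46.1% for pacSC-alone regions of the last 10 Mb, 40.4% for SG-A-alone and 27.2% for PriSG-A-alone regions with their own kind, so near neighbours were not particular to the selected regions. No listed region of any stage lay within 10 kb of 2294 regions (28.1%), and the density ratio by length in these was 2.11 (1.90 to 2.35).

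The spacing between neighbours had 2 separate ranges. Of the 8142 gaps between consecutive regions on a chromosome, 1011 (12.4%) were 100 to 200 bp, and 49.6% were over 100 kb. No gap within a list was under 101 bp. Within the short range, 795 gaps were 100 to 150 bp and 126 were 200 to 250 bp, with a second rise to 220 at 250 to 300 bp. With regions at most 1000 bp apart joined, the 8161 regions formed 6375 loci, of which 4915 were single regions, 1209 were pairs and 251 held 3 or more. The largest, on chromosome 8 at 94713159 to 94716356, held 7 regions of 70 to 266 bp in 3198 bp. A locus of 6 lay at 112363109 to 112365206 on chromosome 10, and another of 6 at 14849951 to 14851780 on chromosome 19. With each locus counted once the density ratio by length was 2.13 (2.00 to 2.27), and with each occupied 100 kb window counted once it was 1.94 (1.81 to 2.09).

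**Figure D5:**
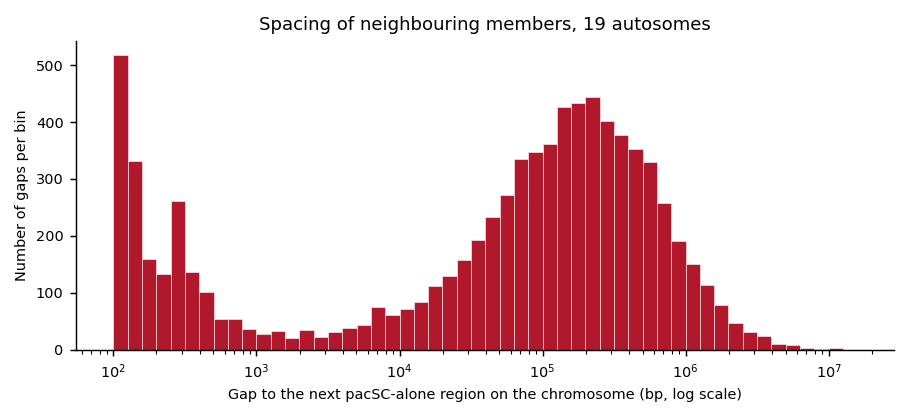
Number of gaps per bin (y axis) against the gap in bp to the next pacSC-alone region on the same chromosome, on a log scale (x axis), for 8142 gaps on 19 autosomes. The distribution has a short range with 1011 gaps of 100 to 200 bp and a smaller rise near 250 to 300 bp, and a broad range around 100 kb and above.

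On the scale of 1 Mb the regions were clustered. Of 2198 whole windows, 434 (19.7%) held none, the median was 2 and the mean 3.59, and the variance was 4.34 times the mean. The 158 windows with 10 or more regions held 27.0% of all regions in whole windows. The densest window was chromosome 17 at 5000001 to 6000000, with 50 regions, followed by its neighbour at 4000001 to 5000000 with 42. That neighbour held 23 SG-A regions, 17 PriSG-A regions and no rST region, whereas the densest window held 61, 30 and 1. Over the 12 windows with 20 or more selected regions, SG-A regions ran from 13 to 61 per window. Chromosome 6 at 4000001 to 5000000 held 35 selected regions, and chromosome 10 at 5000001 to 6000000 held 26. Of the 12 windows with 20 or more, 11 lay within 10 Mb of the first listed peak, and the other, on chromosome 15 at 91000001 to 92000000 with 25 regions, lay 11.99 Mb from the distal end. Across windows the number of pacSC-alone regions had a Spearman correlation of 0.01 with shared pacSC regions, 0.20 with regions shared by pacSC and rST alone and −0.11 with SG-A-alone regions (n = 2198 windows, descriptive).

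Long stretches without any selected region lay mainly on long autosomes. There were 50 runs of at least 3 Mb between neighbouring regions, covering 243 Mb or 10.9% of the inner span, with 4 runs on the 6 shortest autosomes and 36 on the 6 longest. Chromosomes 9, 15, 16, 18 and 19 had none. The longest was 19.4 Mb on chromosome 11, at 68020411 to 87430292. The lists had 952 SG-A regions in it (49.0 per Mb), 570 of PriSG-A (29.4 per Mb), 163 of pacSC (8.40 per Mb) and 11 of rST (0.567 per Mb). Every pacSC region in a run is one shared with another list, by the way runs were defined. The next were 11.04 Mb on chromosome 7 at 25512234 to 36550116, with 858 SG-A and 119 pacSC regions, and 10.1 Mb on chromosome 4 at 113288116 to 123400572, with 547 SG-A and 78 pacSC regions.

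The runs as a group were rich in spermatogonial open regions. SG-A regions had a density of 48.6 per Mb in the runs and 32.7 in the rest of the inner span, a ratio of 1.49 (1.46 to 1.52), and PriSG-A regions 32.2 in the runs and 21.1 in the rest, a ratio of 1.53 (1.49 to 1.57). Shared pacSC regions were at 8.70 per Mb in the runs and 7.20 elsewhere, a ratio of 1.21 (1.15 to 1.27). The rST regions were slightly sparser, with 2.31 per Mb in the runs and 2.59 elsewhere, a ratio of 0.889 (0.815 to 0.970). The shared pacSC regions were narrower and weaker in the runs, with a median width of 242 bp in the runs and 310 bp elsewhere, and a median −log10 q of 2.59 in the runs and 3.04 elsewhere. Peaks of the other 3 stages covered 2.63% of the bases in the runs and 1.55% elsewhere, so a pacSC region there had somewhat more listed sequence to overlap. The part of this in the absence of pacSC-alone regions was not tested. The runs were picked out after their values were seen.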

How the data were processed

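The deposited ATAC-seq peak lists of 4 stages were used, 1 list for all replicates of a stage, so replicates are not separable. The submitters' processing notes list Bowtie2 2.2.5, Bowtie and SAMtools and say nothing here of what each did. Not given in the sources used here are the peak caller, its settings, any Tn5 shift and how replicates were joined. The PriSG-A list was assigned from the labels and by exclusion, because its deposited name is garbled. The authors' columns used were the signal, the −log10 q and the score of every peak. By the values, the deposited score is the signal over the width times 1000, capped at 1000 (tolerance 0.5), which makes the signal an area that grows with width. No deposited signal was under 20.0.

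Union regions, densities and distances were computed in Python 3.11.15 with numpy 2.4.6, pandas 2.3.3 and scipy 1.17.1, and tested on simulated data. Chromosome length is the highest peak end over the 4 lists, and density is regions per Mb between the first listed peak and the 10 Mb limit. Named regions are the 5 of highest signal value and of highest −log10 q, the 3 widest, the strongest on the longest and shortest autosomes and the 3 nearest each side of the limit. Dense windows, loci and empty runs were added as the largest of their kind. The regions and comparisons were chosen with earlier results of these data known.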

Additional observations from a re-analysis of the deposited data

Results flagged for a closer look

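The X chromosome was outside the selection, and it also carried regions listed in pachytene cells alone. Inside the same 10 Mb limit it had 95 of them in 154 Mb, or 0.619 per Mb, against 3.67 per Mb on the autosomes, a ratio of 0.169 (95% Poisson interval 0.138 to 0.206). They made up 13.2% (10.9 to 15.9) of the 718 pacSC regions there, against 33.3% on the autosomes. The Y had 5 such regions. The X, at 166.65 Mb, lies in length between chromosomes 3 and 2, which had 3.03 and 2.71 per Mb. Chromosome 4, at 155.6 Mb, had 2.04 per Mb, and the least dense autosome, chromosome 7, had 1.89. It is given here as a signal outside the chromosomes compared, with no control list, and the intervals cover counting error only.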

How the results depend on the processing

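Over 52 alternative values, 24 stayed within the spread set for them and 28 moved. A change of direction could be called only for the density ratios and the Spearman correlation with length, and none of these changed direction. The counts, shares and widths have no direction and could only stay or move. With only pacSC peaks at −log10 q 5 or more, and the other 3 lists uncut, the pacSC-alone count was 65 and their share of inner pacSC regions 2.57%. The ratio of the 6 shortest to the 6 longest autosomes was then 3.48 and the ratio of 10 to 20 Mb to beyond 40 Mb 1.37 (0.648 to 2.88, an interval that includes 1). With a reciprocal overlap of 50% these 4 values were 16498, 67.2%, 1.52 and 1.52. With each 100 kb window counted once they were 5076, 44.5%, 1.94 and 1.79. The share was 32.6% without 12 dense windows, 31.9% with a distal zone of 20 Mb, 31.7% without the first 10 Mb, 26.6% with no other list's peak within 1000 bp and 38.5% with spermatogonial lists cut to the pacSC length. The length ratio was 1.55 for the 9 shortest against the 9 longest, 2.36 with the 20 Mb zone, 1.67 at 10 to 40 Mb only and 2.61 beyond 20 Mb from both ends. The distal ratio was 2.37 without the first 10 Mb. The cause of these shifts was not tested. Counting neighbours once and the limit of 20 Mb from both ends were chosen after seeing the data. With a 20 Mb zone the 10 to 20 Mb band has no regions, so that ratio has no value. No paired analysis was possible because replicates were merged into 1 list per stage, and for the same reason none was left out. The unknown read depth limits every statement on absence from a list.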
